A study of Mus musculus with 30 samples.

Results

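Sites of 9 transcription factors were described around 4 genes, Cebpa, Cebpb, Cebpd and Pparg, in 3T3-L1 cells. The members were chosen by position: every listed interval whose midpoint fell inside a fixed window of the mouse build mm9. The windows were 35.80 to 36.01 Mb of chromosome 7 for Cebpa, 167.41 to 167.62 Mb of chromosome 2 for Cebpb, 15.78 to 15.99 Mb of chromosome 16 for Cebpd and 115.21 to 115.54 Mb of chromosome 6 for Pparg. They held 84 of the 34724 sites of the series (0.242%), with 6 sites at Cebpa, 27 at Cebpb, 7 at Cebpd and 44 at Pparg. 3T3-L1 is a mouse fibroblast line that can turn into fat cells. For all 9 libraries, post-confluent cells were induced with insulin at 1 μg per ml, dexamethasone (a glucocorticoid) at 1 μM and isobutylmethylxanthine (an inhibitor of cyclic AMP breakdown) at 0.5 mM, in medium with 10% FCS. Chromatin was collected at 4 h for chromatin immunoprecipitation with sequencing (ChIP-seq), with 1 library for each of VDR, RXR, KLF4, KLF5, cJun, JunB, FOSL2, ATF2 and ATF7. The labels name no genetic change in these libraries, and untreated cells were not analysed here.

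C/EBPβ and C/EBPδ, encoded by Cebpb and Cebpd, are bZIP transcription factors that rise early after adipogenic induction. They promote expression of Cebpa and Pparg, whose products C/EBPα and PPARγ maintain each other and switch on the genes of the mature fat cell. PPARγ is a nuclear receptor that binds DNA as a heterodimer with RXR. Of the profiled factors, FOSL2, JunB and cJun form the AP-1 dimers of the bZIP class, and ATF2 and ATF7 are bZIP factors that bind cyclic AMP response elements. KLF4 and KLF5 are Krüppel-like zinc-finger factors with roles in early adipogenesis, and VDR is the vitamin D receptor, another partner of RXR. None of the 4 genes' own products was profiled in the lists used here.

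The lists give presence or absence of 400 bp intervals with no score, so the depth of the libraries is unknown and the values below are counts of listed sites. There is 1 library per factor and no replicate, so no difference between loci carries a replicate error and no p-value is given. The lists ranged from 5876 sites (KLF4) to 17120 (KLF5). A site listed for several factors is the same interval in each list. Different intervals were counted as separate sites even where they overlapped, and the smallest distance between midpoints in the series was 201 bp. Of the 4 windows, only that of Pparg held midpoints less than 400 bp apart (372 bp). A site listed for 5 or more factors is called a hotspot. The cell line's identity could not be checked from lists of binding sites. Sites of 1 window lie side by side on a chromosome and are not replicates.

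RefSeq promoters show what letters the DNA at the starts of these genes holds for the profiled families. The table used covers 250 bases before and 50 after a start in build GRCm38.p6. It matched 3 of the 4 members by symbol, with 1 start for Cebpa, 1 for Cebpb and 3 for Pparg. Because its build is not that of the lists, no listed site was placed on these sequences. Both strands were searched for AP-1 (TGANTCA, which is its own reverse complement), the cyclic AMP response half-site TGACG, the KLF box CACCC and the nuclear receptor half-site AGGTCA. Matches are in capitals. Shown are the start of Cebpb and the first 2 starts of Pparg, the members whose windows held most sites.
Cebpb, chr2:167688665-167688964, plus strand: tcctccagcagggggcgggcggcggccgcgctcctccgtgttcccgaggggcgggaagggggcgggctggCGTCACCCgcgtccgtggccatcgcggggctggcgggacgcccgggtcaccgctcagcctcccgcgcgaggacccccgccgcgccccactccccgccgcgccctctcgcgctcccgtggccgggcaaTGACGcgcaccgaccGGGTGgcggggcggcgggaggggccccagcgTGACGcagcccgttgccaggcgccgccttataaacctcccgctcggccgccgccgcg
Pparg start 1, chr6:115360894-115361193, plus strand: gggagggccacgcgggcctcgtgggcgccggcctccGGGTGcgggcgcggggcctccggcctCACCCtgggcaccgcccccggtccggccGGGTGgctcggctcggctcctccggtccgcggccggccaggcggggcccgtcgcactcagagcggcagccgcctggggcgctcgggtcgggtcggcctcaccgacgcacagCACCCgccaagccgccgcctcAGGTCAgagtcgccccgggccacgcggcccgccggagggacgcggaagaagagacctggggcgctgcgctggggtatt
Pparg start 2, chr6:115362099-115362398, plus strand: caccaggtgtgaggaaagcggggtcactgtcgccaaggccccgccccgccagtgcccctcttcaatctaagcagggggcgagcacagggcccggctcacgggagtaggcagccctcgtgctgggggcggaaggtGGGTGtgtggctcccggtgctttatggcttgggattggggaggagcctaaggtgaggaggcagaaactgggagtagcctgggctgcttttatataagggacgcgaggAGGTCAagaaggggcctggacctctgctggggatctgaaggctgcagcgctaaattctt

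The Cebpb promoter held 3 TGACG half-sites and 2 KLF boxes, with 1 half-site running into a KLF box (CGTCACCC on the printed strand). It held no AGGTCA and no AP-1 match. The first Pparg promoter held 4 KLF boxes and 1 AGGTCA, and the second held 1 of each. The third Pparg promoter held none of the 4 motifs, and that of Cebpa held 2 KLF boxes and no other match. Among all 32851 promoters of the table, 20.8% held TGACG at least once, 57.5% the KLF box, 16.3% AGGTCA and 7.81% the AP-1 motif. A match to the KLF box is thus common, and matches to the others are less so. These shares do not say how many promoters hold several matches. A match is a run of letters in a window of 300 bases, not evidence of binding.

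Sites were denser around Pparg and Cebpb than around Cebpa and Cebpd. The density was 13.3 sites per 100 kb at Pparg, 12.9 at Cebpb, 3.33 at Cebpd and 2.86 at Cebpa. Counting each factor at each site as 1 list entry, the order of the lower pair changed: Pparg had 48.2 entries per 100 kb, Cebpb 31.4, Cebpa 7.14 and Cebpd 6.67. Leaving out each list in turn gave 41 to 44 sites at Pparg, 21 to 27 at Cebpb, 6 to 7 at Cebpd and 3 to 6 at Cebpa. The Cebpa count fell to 3 without the KLF5 list, which alone listed 3 of its 6 sites. The ranges of Pparg (330 kb) and Cebpb (210 kb) thus stayed above those of the other 2 windows (210 kb each), and those of Cebpa and Cebpd met at 6.

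These counts were set beside all windows of the same size centred on every listed site outside the locus, a total of 34670 to 34713 windows per locus. The Pparg window's 44 sites were 4.0 times the median of 11, and 3.16% of such windows held at least as many. The Cebpb window's 27 sites were 3.38 times the median of 8, with 3.88% at or above it. The Cebpd window with 7 sites and the Cebpa window with 6 lay just below that median, with 60.0% and 68.3% of windows at or above them. For list entries, 2.49% of windows reached Pparg, 6.32% reached Cebpb, 63.3% reached Cebpa and 66.0% reached Cebpd. Without the ATF2 list, the Cebpb value rose to 10.1% for entries and 5.83% for sites. These are places in an observed distribution, not tests, since neighbouring windows share sites.

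**Figure D1:**
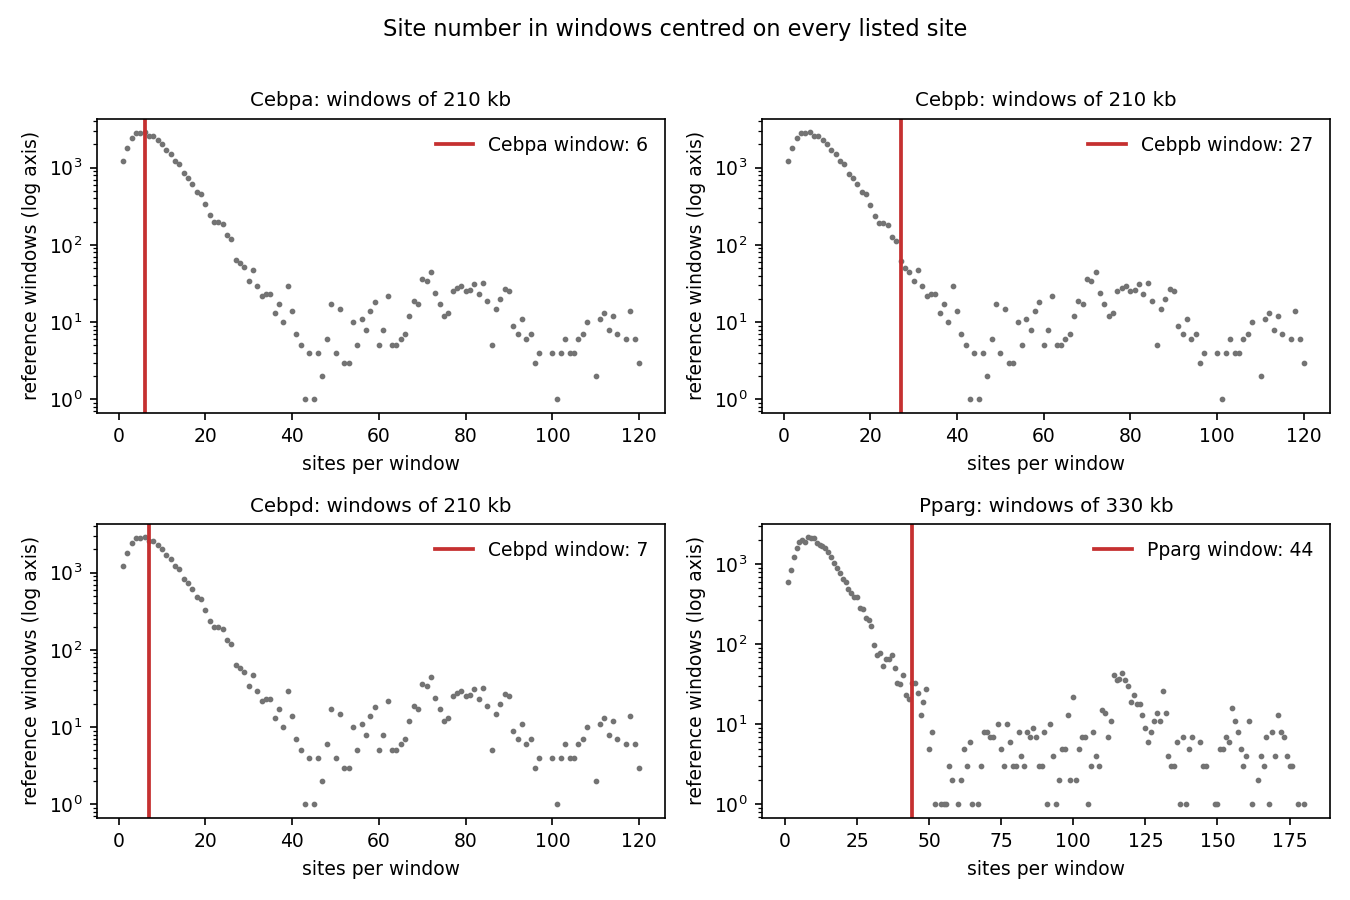
Number of reference windows (log vertical axis) by the number of listed sites they hold (horizontal axis), 1 panel per locus; grey points are all windows of the locus's width centred on listed sites, and the red line is the locus. The Pparg and Cebpb windows lie in the upper tail with 44 and 27 sites, and the Cebpa and Cebpd windows lie near the medians of 8 with 6 and 7.

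The standing of each locus depended on the windows it was set beside. Windows centred on listed sites hold at least 1 site by construction and come most often from dense stretches. Non-overlapping windows tiled along the chromosomes had a median of 1 site for 210 kb and 2 for 330 kb. Of these, 0.167% reached the Pparg count, 0.205% the Cebpb count, 14.9% the Cebpd count and 18.8% the Cebpa count. All 4 windows thus held more sites than the median tiled window. Chromosome 10, which holds dense blocks of sites, supplied most of the windows above Pparg and Cebpb: without it, 0.456% of windows centred on sites reached Pparg and 1.24% reached Cebpb.

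Around Pparg, the factors listed at most sites were both nuclear receptors and KLF5. Their lists were also the longest of the series, with 17120 sites for KLF5, 12082 for RXR and 11796 for VDR. RXR was listed at 30 of the 44 sites, VDR at 29 and KLF5 at 28. KLF4 and JunB followed with 14 sites each, ATF2 with 13, ATF7 and cJun with 11 each and FOSL2 with 9. As shares, RXR had 68.2% (95% exact interval 52.4 to 81.4) against 34.8% of all sites of the series, and VDR had 65.9% (50.1 to 79.5) against 34.0%. KLF4 had 31.8% (18.6 to 47.6) against 16.9%. These 3 intervals lay above the share over all sites, and those of the other 6 factors held it: KLF5 63.6% against 49.3%, JunB 31.8% against 29.0%, ATF2 29.5% against 33.3%, ATF7 25.0% against 21.2%, cJun 25.0% against 17.8% and FOSL2 20.5% against 18.1%. The intervals cover counting error alone and treat neighbouring sites as independent.

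Among the 20278 windows of 330 kb that held 10 or more sites, the median share was 36.4% for RXR and 33.3% for VDR. At least the Pparg share was found in 4.25% of them for RXR, in 4.15% for VDR, in 12.7% for KLF4 and in 27.5% for KLF5. For the bZIP factors it was found in 26.1% (cJun) to 63.5% (ATF2). By number of sites, 0.891% of all reference windows had at least 30 RXR sites, 1.48% at least 29 VDR sites and 1.86% at least 28 KLF5 sites. The corresponding values for the bZIP factors were 2.66% for cJun, 2.69% for JunB, 4.24% for ATF7, 5.01% for FOSL2 and 6.23% for ATF2. The minimum of 10 sites was chosen after the values were seen.

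**Figure D2:**
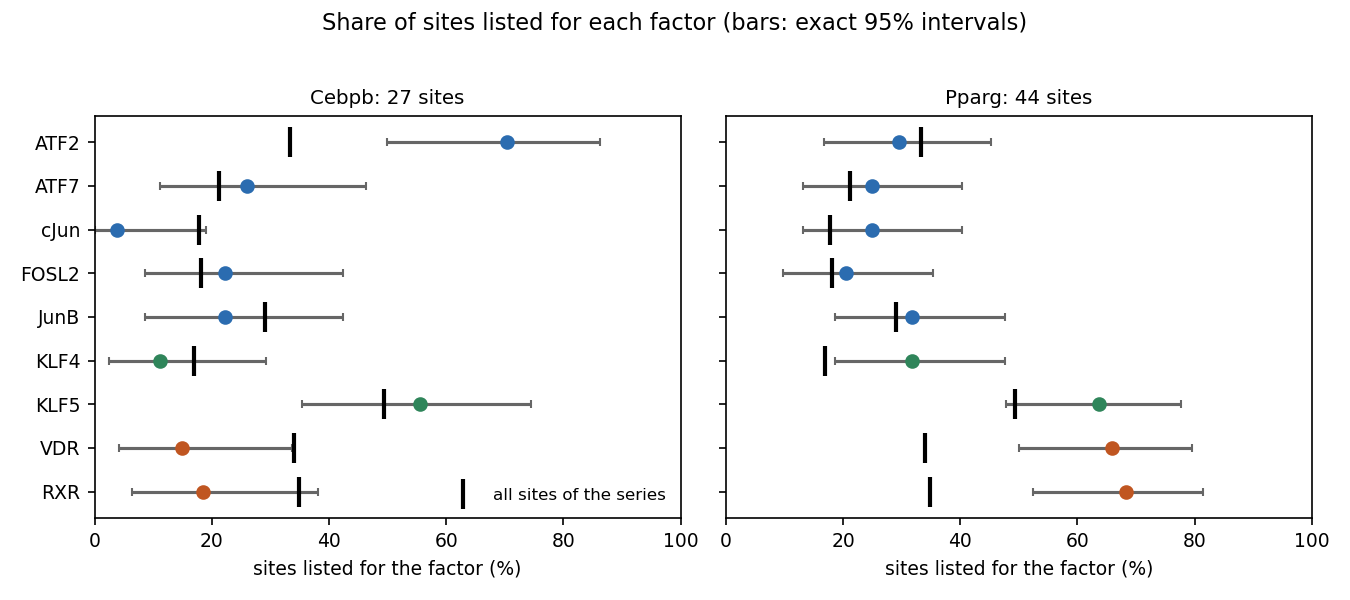
Share of sites listed for each factor (horizontal axis, percent) in the Cebpb and the Pparg window, with exact 95% intervals as bars; black ticks are the shares over all 34724 sites, and colours mark bZIP (blue), KLF (green) and receptor (orange) factors. ATF2 stands at 70.4% at Cebpb, and RXR and VDR stand at 68.2% and 65.9% at Pparg.

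The receptors at Pparg were mostly listed together and with a KLF factor. Both VDR and RXR were listed at 24 of the 44 sites (54.5%, against 22.8% of all sites). At least 1 of them was listed at 35 (79.5%, against 46.0%). RXR was present at 24 of the 29 VDR sites (82.8%, against 67.1% over all VDR sites). KLF5, VDR and RXR together were listed at 21 sites (47.7%, against 18.6% of all sites). All 14 KLF4 sites carried KLF5, VDR and RXR, where over all KLF4 sites of the series 86.4% carried KLF5, 69.0% VDR and 71.0% RXR. All 11 cJun sites carried VDR (60.9% over all cJun sites), and 9 of them carried JunB (81.8%, against 80.1%). In this window, however, RXR was listed at 68.2% of all 44 sites, VDR at 65.9% and KLF5 at 63.6%. Hotspots made up 11 of the KLF4 sites and 8 of the cJun sites. All 12 hotspots of the window carried VDR, RXR and KLF5. Whether the KLF4 or cJun sites differed from the window in these factors was not tested. Sites with KLF and receptor factors but no bZIP factor numbered 11 (25.0%, against 9.26% of all sites). Sites with receptors alone numbered 8 (18.2%, against 10.9%), and sites with bZIP factors alone numbered 7 (15.9%, against 31.7%).

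The Pparg window held 12 hotspots among its 44 sites, or 27.3% (95% exact interval 15.0 to 42.8), where 16.2% of all sites of the series were hotspots. That interval held the share of the series. At least 12 hotspots were found in 2.52% of reference windows, whose median was 2. Among the 20278 windows with 10 or more sites, the median share of hotspots was 17.9%. At least the Pparg share was found in 22.0% of them. VDR, RXR and KLF5 were listed at all 12, KLF4 at 11 and JunB at 10. Over all hotspots of the series, KLF5 was listed at 93.5%, RXR at 87.5%, VDR at 83.8%, JunB at 81.5% and KLF4 at 62.8%. A site with a single factor was found 8 times at Pparg (18.2%), where 43.3% of all sites had a single factor. The mean was 3.61 factors per site, against 2.54 over all sites.

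All 9 factors were listed at 2 Pparg sites, 115371656 to 115372055 and 115374471 to 115374870 of chromosome 6. Such sites made up 1.45% of the series, and 5.26% of reference windows held 2 or more. The second of them was the site nearest to the centre of the window, at -0.3 kb. Together with a site of 6 factors at 115370897 to 115371296 they formed a group of 3 hotspots in 3.97 kb. The series had 126 groups of 3 or more hotspots with neighbours no more than 10 kb apart. Their place relative to mm9 gene models was not analysed here.

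The remaining named hotspots lay on both sides of that group. Toward lower coordinates, sites with 7 factors lay at 115234117 to 115234516, 115263147 to 115263546 and 115265854 to 115266253, and a site with 6 factors at 115282989 to 115283388. All 4 were listed for cJun, JunB, KLF4, KLF5, VDR and RXR, and ATF7 was listed at none of them. Toward higher coordinates, sites with 8 factors lay at 115412855 to 115413254, 115469400 to 115469799 and 115491645 to 115492044. The first of these lacked KLF4, and the other 2 lacked cJun. All 3 carried ATF2, ATF7, FOSL2 and JunB. These 3 were named for having most factors, which makes the presence of any given factor likely. The 2 other hotspots on this side, with 5 and 6 factors, were not named and carried neither FOSL2 nor JunB. ATF2 and ATF7 were listed at the site of 6 factors and not at the site of 5, and the reverse held for cJun. In the series, 81.5% of all hotspots were listed for JunB, 64.2% for cJun, 59.2% for ATF2, 49.2% for FOSL2 and 46.4% for ATF7.

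The bZIP factors were also counted along the Pparg window, in 3 stretches of equal width. In the 110 kb at the lowest coordinates, JunB was listed at 6 of 16 sites, cJun at 5, ATF2 and ATF7 at 3 each and FOSL2 at 2. In the middle 110 kb, cJun was listed at 6 of 18 sites, JunB at 5, ATF2 at 4 and ATF7 and FOSL2 at 3 each. In the 110 kb at the highest coordinates, ATF2 was listed at 6 of 10 sites, ATF7 at 5, FOSL2 at 4, JunB at 3 and cJun at 0. VDR was listed at 8, 16 and 5 sites of the 3 stretches and RXR at 8, 16 and 6. Over the whole window, cJun was listed at 25.0% of sites (17.8% in the series) and JunB at 31.8% (29.0%). The values were 29.5% (33.3%) for ATF2, 25.0% (21.2%) for ATF7 and 20.5% (18.1%) for FOSL2. For VDR they were 65.9% (34.0%) and for RXR 68.2% (34.8%). The stretches were set after the sites were seen, and no test of the differences was made.

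**Figure D3:**
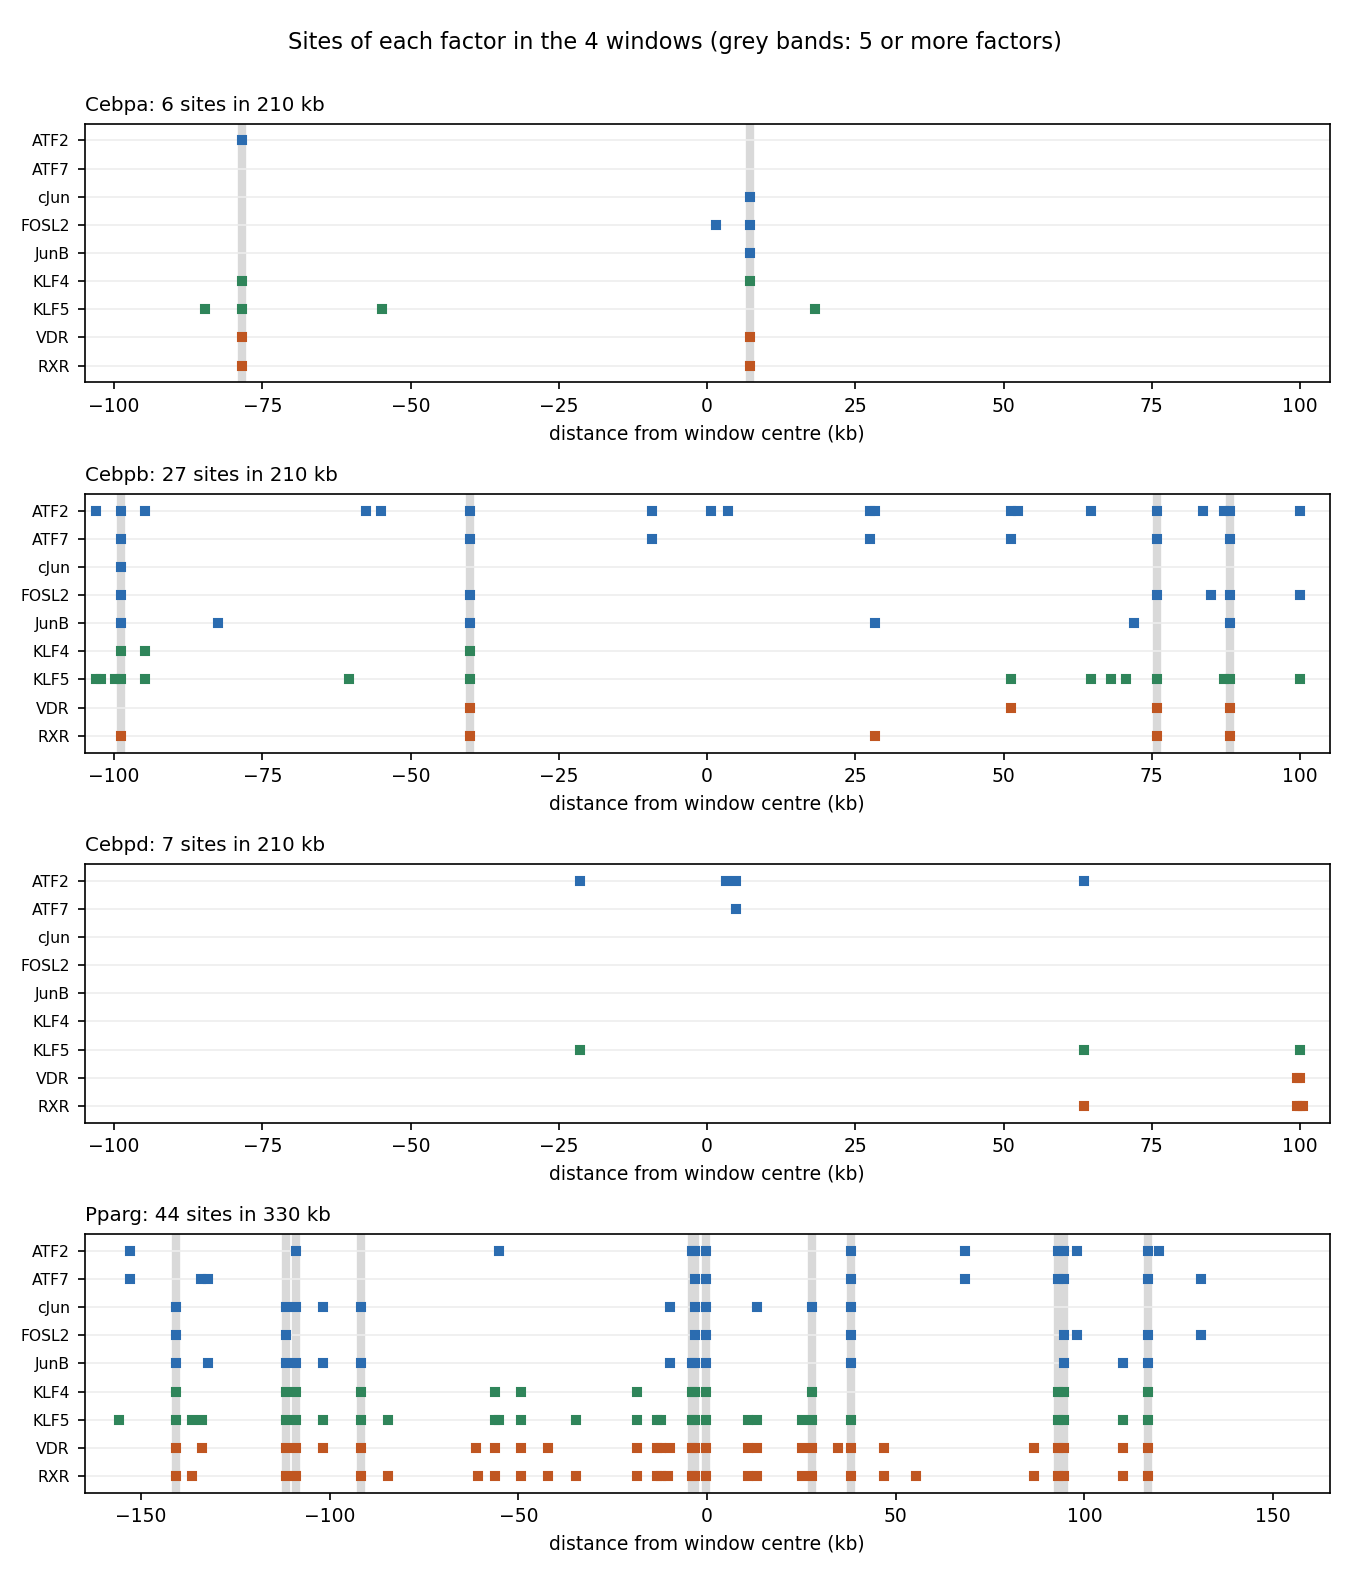
Position of each site as distance from the window centre in kb (horizontal axis) for each of the 9 factors (rows), 1 panel per locus; squares are listed sites of bZIP (blue), KLF (green) and receptor (orange) factors, and grey bands mark hotspots. Pparg shows rows of VDR, RXR and KLF5 sites across most of the window, Cebpb a row of 19 ATF2 sites, and Cebpa and Cebpd 6 and 7 sites.

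Around Cebpb, ATF2 was the leading factor. It was listed at 19 of the 27 sites, KLF5 at 15, ATF7 at 7, FOSL2 and JunB at 6 each, RXR at 5, VDR at 4, KLF4 at 3 and cJun at 1. The ATF2 share was 70.4% (95% exact interval 49.8 to 86.2), against 33.3% of all sites. VDR had 14.8% (4.19 to 33.7), against 34.0%. For the other 7 factors the interval held the share of the series, which for cJun was 17.8% against 3.70% at Cebpb. Among 13392 windows of 210 kb with 10 or more sites, the median ATF2 share was 36.4%, and 1.86% had at least the Cebpb share. A VDR share as low as at Cebpb was found in 12.8% of these windows, and a cJun share as low in 12.2%. The number of ATF2 sites was reached by 2.90% of all reference windows.

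At Cebpb, 14 of the 27 sites (51.9%) had a single factor, against 43.3% of all sites. It was ATF2 at 6 of them and KLF5 at 5, the factors that stood alone at 3249 and 4103 of all 34724 sites. All 7 ATF7 sites were also ATF2 sites, against 65.9% over all ATF7 sites of the series. KLF5 sites carried ATF2 in 10 of 15 cases (66.7%, against 29.6% over all KLF5 sites). That share was near the 70.4% of all 27 sites of the window that were listed for ATF2. All 6 sites with VDR or RXR also carried ATF2, where 28.5% of all RXR sites and a similar share of all VDR sites did. ATF2 was listed at 70.4% of the sites of this window, however, and 4 of the 6 were hotspots, with 6 to 8 factors each. Whether these 6 sites differed from the window in ATF2 was not tested. Sites with receptors alone numbered 0, where they made up 10.9% of all sites. Sites with bZIP factors alone numbered 11 (40.7%, against 31.7%).

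The Cebpb window held 4 hotspots, or 14.8% of its sites (95% exact interval 4.19 to 33.7), near the 16.2% of the series. They lay on chromosome 2 at 167415985 to 167416384 and 167474757 to 167475156, with 8 factors each, at 167603032 to 167603431 with 7 and at 167590633 to 167591032 with 6. All 4 carried ATF2, ATF7, FOSL2, KLF5 and RXR. Over all hotspots of the series, KLF5 was listed at 93.5%, RXR at 87.5%, ATF2 at 59.2%, FOSL2 at 49.2% and ATF7 at 46.4%. The single cJun site of the window was the hotspot at 167415985.

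Most Cebpb sites lay away from the centre of the window. The 70 kb at the lowest coordinates held 10 sites, the middle 70 kb held 5 and the 70 kb at the highest coordinates held 12. All 5 sites of the middle stretch were ATF2 sites, and KLF5 was listed at none of them. ATF2 was listed at 70.4% of the sites of the window and 33.3% of all sites. The values for KLF5 were 55.6% and 49.3%. These stretches too were set after the sites were seen, and no test of the differences was made. The site nearest to the centre, 167515470 to 167515869, was listed for ATF2 alone. In a window of 105 kb around the same centre, 8 sites remained, and 25.8% of reference windows of that width held at least as many. In a window of 420 kb there were 52 sites, reached by 2.99%. At Pparg, windows of 165 and 660 kb held 24 sites (reached by 3.66%) and 54 sites (4.20%).

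Around Cebpa, 2 of the 6 sites were hotspots and the other 4 had a single factor. The hotspot nearer to the centre, 35912109 to 35912508 of chromosome 7, lay at 7.3 kb and was listed for cJun, FOSL2, JunB, KLF4, VDR and RXR. This combination without KLF5 was found at 4 sites of the whole series, and the same combination with KLF5 at 90. KLF5 was listed at 93.5% of all hotspots, and an unlisted factor is not shown to be absent. The other hotspot, 35826352 to 35826751, lay at -78.4 kb and was listed for ATF2, KLF4, KLF5, VDR and RXR. Leaving out any of these 5 lists left 1 hotspot at Cebpa. KLF5 was the single factor at 3 sites. FOSL2 was the single factor at the site nearest to the centre, 35906249 to 35906648. ATF7 was listed at 0 of the 6 sites (95% exact interval 0 to 45.9). With 6 sites, the interval of each factor's share at Cebpa held the share of the series, and so did that of the hotspots (33.3%, 4.33 to 77.7).

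Around Cebpd no site was a hotspot, and no site had more than 3 factors. The 7 sites are all named here because the window held no hotspot, a choice made after their values were seen. Toward lower coordinates lay 15863328 to 15863727 of chromosome 16, listed for ATF2 and KLF5. Near the centre lay 15888044 to 15888443, listed for ATF2 alone, and 15889611 to 15890010, listed for ATF2 and ATF7. At 15948278 to 15948677, ATF2, KLF5 and RXR were listed. The last 3 sites lay next to each other at the far end: 15984301 to 15984700 for VDR and RXR, 15984785 to 15985184 for KLF5, VDR and RXR, and 15985296 to 15985695 for RXR alone. ATF2 and RXR were listed at 4 sites each, KLF5 at 3, VDR at 2 and ATF7 at 1. The AP-1 subunits cJun, FOSL2 and JunB, and KLF4, were listed at 0 of 7 sites (95% exact interval 0 to 41.0 for each). The share of the series lay within that interval for all 4 factors. Windows with no hotspot made up 33.0% of the reference windows.

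**Figure D4:**
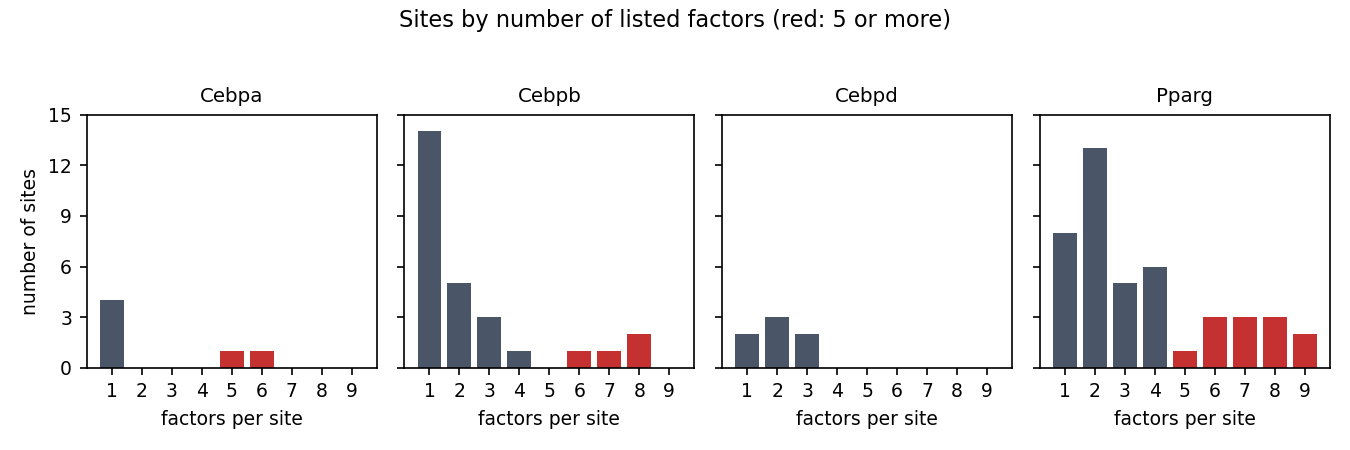
Number of sites (vertical axis) by the number of factors listed at the site (horizontal axis, 1 to 9), 1 panel per locus, with sites of 5 or more factors in red. Pparg has 12 such sites up to 9 factors, Cebpb has 4 up to 8 factors, Cebpa has 2 and Cebpd has 0.

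The 4 windows together held 18 hotspots among 84 sites, or 21.4% (95% exact interval 13.2 to 31.7), an interval that held the 16.2% of the series. Of these, 12 lay at Pparg. All 18 carried a bZIP, a KLF and a receptor factor, as did 89.9% of all hotspots. The factor with most sites was RXR at Pparg, ATF2 at Cebpb and KLF5 at Cebpa, and ATF2 and RXR tied at Cebpd. Over all sites of the series, KLF5 was listed at 49.3%, RXR at 34.8% and ATF2 at 33.3%. The RXR sites at Cebpd included the 3 neighbouring sites at the far end of the window. ATF2 was listed at the site nearest to the centre in 3 of the windows, the exception being Cebpa. At Pparg that site was listed for all 9 factors, and ATF2 was listed at 33.3% of all sites of the series.

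The window edges decided few sites. Beyond the upper edge of the Cebpb window, an ATF2 site at 167619939 to 167620338 lay 138 bp outside by its midpoint, while the last site inside, 167614852 to 167615251, was listed for ATF2, FOSL2 and KLF5. Below its lower edge, 9.5 kb outside, lay a site of 7 factors at 167400261 to 167400660, and the first site inside, 167411661 to 167412060, had ATF2 and KLF5. At Cebpd the next site outside, with ATF2, was 2.4 kb beyond the upper edge, and the last inside had RXR. On the lower side the next site was 142.4 kb away, listed for ATF2 and ATF7. At Pparg the nearest outside sites had ATF7 at 12.1 kb and KLF5 at 11.8 kb. The outermost inside had KLF5, and ATF7 with FOSL2. At Cebpa they had ATF2 at 18.4 kb and KLF5, VDR and RXR at 29.3 kb, and both outermost sites inside had KLF5.

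Other genes lie near these 4, and a site in a window is not thereby a site of the named gene. Which genes fall inside the mm9 windows was not analysed here.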

How the data were processed

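ChIP-seq lists of 9 libraries, 1 per factor, were used, and 21 other samples of the 30 labelled were not analysed here. The authors deposited, per the file headers and columns, mm9 intervals of chromosome, start and end with no other value. FastQC, Bowtie and HOMER are named in the submitters' processing notes. What each did, its version and the peak threshold: not given in the sources used here. Depth and antibody can both change how many sites a list holds. Identical intervals were joined across lists, and 2 intervals on chromosome Y were left out, leaving 34724 sites. Sites were assigned to windows by midpoint and printed 1-based. Reference windows were all windows of the same width centred on listed sites of chromosomes 1 to 19 and X that did not overlap the locus. None was drawn at random. Intervals of shares are exact Clopper-Pearson 95% intervals. Window counts were tested on simulated sites against a direct count.

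The members, lists and thresholds were chosen with earlier results of these data known. Sites named with coordinates were, per locus, the hotspots (at most 10, those with most factors, ties by nearness to the centre), the site nearest to the centre and the sites at the edges. Alternatives changed the reference windows, the width, the hotspot threshold and the lists used. Other adipogenic genes were not counted, since no mm9 annotation was used here. Python 3.11.15, numpy 2.4.6, scipy 1.17.1, pandas 2.3.3 and matplotlib 3.10.9 were used.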

Additional observations from a re-analysis of the deposited data

How the results depend on the processing

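Counting any overlap changed no site count by more than 1 site. With 6 or more factors required, hotspots fell to 1 at Cebpa, and the other hotspot counts stayed within 1.5-fold under both thresholds tried. The percent of reference windows with at least as many sites was 18.8 (Cebpa), 0.205 (Cebpb), 14.9 (Cebpd) and 0.167 (Pparg) for tiled windows. For list entries it was 17.3, 0.500, 18.8 and 0.0901. With windows of the same chromosome it was 59.7, 1.87, 65.8 and 0.478 for sites. Without chromosome 10 it was 67.9, 1.24, 59.5 and 0.456. With windows of 105 kb (165 kb for Pparg) it was 78.3, 25.8, 78.3 and 3.66 for sites and 66.9, 24.6, 80.8 and 2.94 for entries, and with windows of 420 kb (660 kb for Pparg) 63.6, 2.99, 63.6 and 4.20 for sites and 70.1, 3.58, 72.2 and 3.16 for entries. Leaving out each list in turn gave 64.5 to 89.5, 3.53 to 5.83, 54.0 to 66.6 and 2.77 to 3.38 for sites and 60.2 to 67.8, 5.24 to 10.1, 61.7 to 73.5 and 2.17 to 2.88 for entries. Site counts then ranged from 3 to 6 (Cebpa), 21 to 27 (Cebpb), 6 to 7 (Cebpd) and 41 to 44 (Pparg), and hotspots from 1 to 2, 4 to 4, 0 to 0 and 11 to 12. With windows of 5 or more sites, chosen after seeing the data, the ATF2 share of Cebpb was reached by 3.33%, and the RXR and VDR shares of Pparg by 4.90% and 5.97%; with 20 or more sites by 1.66%, 3.30% and 2.28%. The cause of these shifts was not tested. Depth is unknown, so an unlisted factor is not shown to be absent. No paired analysis was possible because each factor had 1 library.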
